A study of Gallus gallus with 9 samples.

Results

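The 6 corneal libraries of this chick embryo series (Gallus gallus) fell into 2 groups of 3 by likeness of their RNA profiles, and each group holds libraries of both deposited stage labels. The series has 9 libraries in all. Group A holds E5 library 1, E5 library 2 and E7 library 3, and group B holds E5 library 3, E7 library 1 and E7 library 2, numbered as in the deposited titles. The groups were chosen by the correlations and the second principal component of these same data, so every difference between them is given as a description, with no p-value. The split crosses the deposited labels. An exchange of the labels of E5 library 3 and E7 library 3 would make the groups and the labels coincide; such an exchange is possible but was not shown, and the labels are used as deposited.

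Libraries labelled E5 are corneal endothelium at embryonic day 5, those labelled E7 are endothelium together with keratocytes at embryonic day 7, and the remaining 3 are periocular neural crest at embryonic day 3 (E3). The labels give no strain, sex, treatment or genetic change, nor do they state if a stage was sampled from separate embryos, so the spread between libraries may be technical. RNA was measured by Illumina sequencing of bulk tissue. In such samples, fewer cells of a type and less RNA per cell cannot be told apart.

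In the chick, neural crest cells gathered around the eye move between the lens and the surface ectoderm in successive waves. The first forms the corneal endothelium, a monolayer that pumps water out of the cornea, and a later one forms the keratocytes, which lay down a stroma of fine collagen fibrils spaced by keratan sulfate proteoglycans. An epithelium derived from ectoderm covers the outer face.

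Correlations of log2(CPM + 1), where CPM are counts scaled to a common library total, were 0.981 to 0.985 inside group A, 0.975 to 0.981 inside group B and 0.924 to 0.948 between them. These values are across genes, which are not independent replicates, and they are what the groups were chosen by. On the second principal component, group A lay at 36.3, 31.8 and 34.4 and group B at -35.1, -51.4 and -40.5. The deposited expected counts of a library summed to 18815844 to 23205388 in libraries labelled E5, 9874339 to 13740392 in those labelled E7 and 18405559 to 22055958 at E3. Depth thus followed the labels, not the profile groups. No pair of libraries agreed within sampling noise, since the lowest chi-square per degree of freedom was 6.72, between E5 library 1 and E7 library 3. Correlations with E3 were 0.872 to 0.884 for group A and 0.883 to 0.904 for group B.

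**Figure D1:**
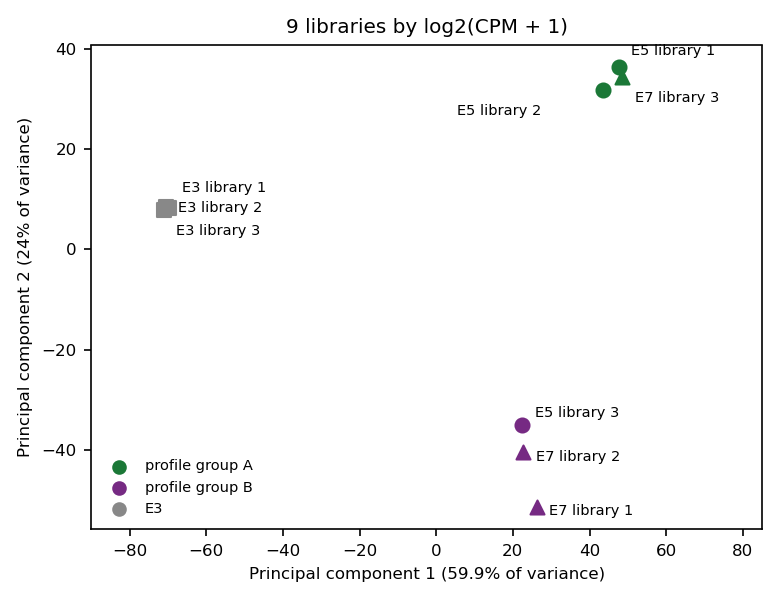
Principal components 1 (59.9% of the variance) and 2 (24%) of log2(CPM + 1) in the 9 libraries, 1 point per library, with colour for the profile group and shape for the deposited stage. Group A lies between 31.8 and 36.3 on component 2 and group B between -51.4 and -35.1, and each holds circles (E5) and triangles (E7).

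Of 11748 genes tested, 970 (8.26%) were higher in group B and 623 (5.3%) higher in group A, where a gene is counted when its log2 fold change, B minus A, was at least 1 in size and the 3 libraries of one group all lay beyond the 3 of the other in CPM scaled by TMM factors. These shares are fixed by the choice of the groups and are printed as the background for the counts of gene lists below, which come from the same contrast. At a log2 fold change of 2 or more the counts were 508 and 212. Over all tested genes the log2 fold change had a median of 0.01. FPKM, levels scaled for transcript length and library depth, are given below in the order E5 library 1, E5 library 2, E7 library 3 for group A and E5 library 3, E7 library 1, E7 library 2 for group B, and every fold change is on the log2 scale of edgeR, B minus A.

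The main proteoglycans of the corneal stroma, keratocan, lumican, decorin and osteoglycin, were lower in all 3 libraries of group B than in group A. Of 19 tested members of the list of stromal proteoglycans and keratan sulfate synthesis, 13 were higher in A and 0 higher in B, with a median log2 fold change of -1.54. Their summed level was 14953, 13499 and 15569 CPM in A and 4835, 6153 and 5122 CPM in B. KERA (gene ID 373995), which encodes the corneal proteoglycan keratocan, stood at 1803, 1685 and 1952 FPKM in A and 601, 816 and 632 FPKM in B, a log2 fold change of -1.54. The lowest A library was thus above the highest B library by a wide margin. Both labels occur on either side, as for any gene apart by group. LUM (417891), which encodes lumican, stood at 1542, 1314 and 1574 FPKM in A and 493, 554 and 525 FPKM in B (-1.60). DCN (417892), which encodes decorin, a collagen-binding proteoglycan, stood at 1605, 1419 and 1694 FPKM in A and 407, 718 and 462 FPKM in B (-1.68). Within group B, E7 library 1 held the highest level of each of these 3 genes.

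OGN, which encodes osteoglycin or mimecan, another of these leucine-rich proteoglycans, stood at 1055, 873 and 1039 FPKM in A and 234, 255 and 256 FPKM in B (-2.10). B3GNT7, an enzyme that extends keratan sulfate chains, stood at 47, 35.4 and 51.4 FPKM in A and 8.48, 8.66 and 7.61 FPKM in B (-2.54). Both were low at E3, OGN at 3.7, 5.02 and 3.14 FPKM and B3GNT7 at 0.69, 0.64 and 0.46 FPKM, so all 6 corneal libraries lay above E3 for both genes. BGN, which encodes biglycan, was a minor transcript at 6.34, 4.69 and 4.53 FPKM in A and 0.56, 0.77 and 0.62 FPKM in B (-3.11).

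Collagens were split in direction. Of 17 tested fibrillar and associated collagens, 7 were higher in A and 4 higher in B, with a median of -0.70. The 3 chains of collagen VI, which forms beaded microfibrils between fibrils, were all higher in A. COL6A2 (396292) stood at 895, 796 and 874 FPKM in A and 56.2, 41.3 and 53.2 FPKM in B, a log2 fold change of -4.19, and COL6A1 at 272, 239 and 290.4 FPKM in A and 38.7, 17.7 and 33.3 FPKM in B (-3.26). COL6A3 stood at 252, 248 and 263 FPKM in A and 71.3, 49 and 55.2 FPKM in B (-2.26). For all 3 chains E7 library 1 was the lowest of the 6, the reverse of its place in group B for keratocan, lumican and decorin. Among fibrillar collagens, COL1A2 stood at 3113, 2473 and 2972 FPKM in A and 813, 1032 and 677 FPKM in B (-1.87). Also higher in A were COL5A1, at 482, 334 and 483 FPKM in A and 110, 127 and 105 FPKM in B (-2.03), and COL5A2 (-1.46).

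The fibrillar collagen COL2A1, typical of cartilage and of the early avian cornea, was higher in B, at 305, 178 and 325 FPKM in A and 857, 1888 and 922 FPKM in B (2.07). COL14A1, a fibril-associated collagen, stood at 10.1, 4.83 and 11.2 FPKM in A and 60.9, 162 and 74.9 FPKM in B (3.41). COL3A1 stood at 13.1, 9.77 and 15.9 FPKM in A and 35.2, 65 and 33.3 FPKM in B (1.68). For these 3 genes E7 library 1 held the highest level of the 6 and the other B libraries also lay above all of A. Of 19 tested genes of collagen processing and crosslinking, 6 were higher in A and 0 higher in B, with a median of -0.75. ADAMTS2, a protease that trims procollagen, stood at 30.3, 19.3 and 32.1 FPKM in A and 0.17, 0.34 and 0.33 FPKM in B (-6.78), and its relative ADAMTS3 at 13.6, 12.8 and 13.7 FPKM in A and 2.89, 3.63 and 3.73 FPKM in B (-2.08).

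**Figure D2:**
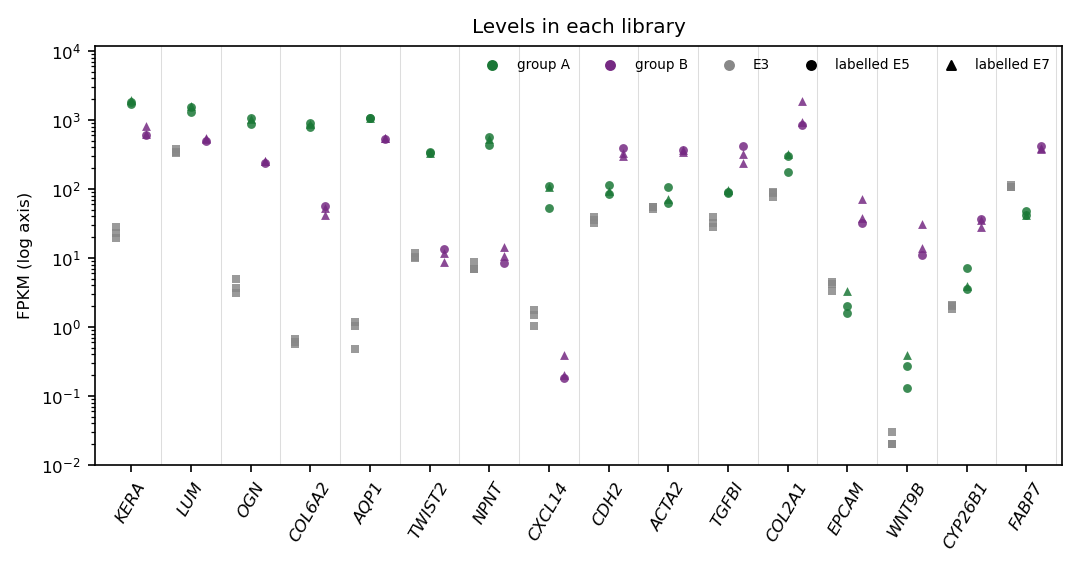
FPKM of 16 named genes in each library on a log axis, with E3 in grey, group A in green and group B in purple, and with circles for E5 and triangles for E7. For each gene the green and purple points do not overlap. Circles and triangles occur in both colours, since each group holds both labels.

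Members of basement and adhesive matrix went both ways, more of them toward B than toward A. The shares over all tested genes were 8.26% toward B and 5.3% toward A. Among 23 tested genes of Descemet's membrane, the basement membrane of the corneal endothelium, and of other basement membranes, 8 were higher in B and 2 in A, with a median of -0.12. COL8A1, a chain of the hexagonal lattice of Descemet's membrane, stood at 6.4, 3.36 and 7.7 FPKM in A and 1.01, 0.71 and 1.25 FPKM in B (-2.66). Its partner COL8A2 stood at 88.7, 69.5 and 105 FPKM in A and 70.2, 64.3 and 54.2 FPKM in B, apart on scaled CPM but not on FPKM, with a log2 fold change of -0.58. COL18A1, a basement membrane collagen, was higher in B, at 11, 10.9 and 11.6 FPKM in A and 46.4, 65.4 and 43.3 FPKM in B (2.11), as was NID1, which links laminin to collagen IV, at 2.45, 3.15 and 3.07 FPKM in A and 13, 12.1 and 11.7 FPKM in B (1.99).

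Of 20 tested matricellular and adhesive proteins, 8 were higher in B and 5 in A, with a median of 0.48. TGFBI (395897), a secreted adhesive protein abundant in cornea, stood at 91.4, 86.1 and 97.8 FPKM in A and 415, 238 and 326 FPKM in B (1.72). TNC, which encodes tenascin-C, stood at 1.89, 2.12 and 1.41 FPKM in A and 26.9, 7.54 and 22.6 FPKM in B (3.28), and E7 library 1 was lower than both other B libraries. POSTN, which encodes periostin, stood at 37.7, 39 and 52.6 FPKM in A and 1.48, 1.68 and 1.88 FPKM in B (-4.73), and THBS4, a thrombospondin, at 278, 326 and 300.3 FPKM in A and 52, 55.5 and 45.6 FPKM in B (-2.67). NPNT, which encodes the integrin ligand nephronectin, had one of the 12 largest differences toward A, at 558, 433 and 538 FPKM in A and 8.47, 14.5 and 10.8 FPKM in B (-5.62). Of 19 tested genes of hyaluronan and matrix remodelling, 5 were higher in B and 2 in A. The latter were HAPLN3, a hyaluronan link protein, at 85.3, 39 and 96 FPKM in A and 12.3, 11.2 and 11.7 FPKM in B (-2.75), and the gelatinase MMP2 at 281, 321 and 297 FPKM in A and 116, 126 and 130.3 FPKM in B (-1.38). Among the 5 toward B, the protease ADAMTS5 stood at 3.1, 3.08 and 3.31 FPKM in A and 6.4, 8.41 and 6.21 FPKM in B (1.04). Another link protein, HAPLN1, was higher in B, at 0.15, 0.06 and 0.04 FPKM in A and 1.51, 3.02 and 4.91 FPKM in B (5.53).

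Among genes for the pump, for transport and for junctions of the endothelium, more were higher in B than in A. The shares over all tested genes were 8.26% higher in B and 5.3% higher in A. Of 27 tested, 7 were higher in B, 2 were higher in A and 18 did not reach the fold with libraries apart, with a median of 0.13. AQP1 (420384), the water channel of the corneal endothelium, stood at 1079.8, 1080.0 and 1085 FPKM in A and 524, 547 and 545 FPKM in B (-1.11). Its levels were close together inside each group, across both labels. CDH2, which encodes N-cadherin, the main cadherin of this endothelium, stood at 84.6, 116 and 92 FPKM in A and 395, 299 and 329 FPKM in B (1.70). ATP1B1, a sodium pump subunit, stood at 10.8, 12.4 and 11.9 FPKM in A and 29.8, 22.8 and 23.4 FPKM in B (1.01), and CA2, a carbonic anhydrase, at 0.12, 0.24 and 0.12 FPKM in A and 4.89, 5.3 and 5.18 FPKM in B (4.77). The borate transporter family member SLC4A11, which is needed for endothelial function in mammals, was low throughout at 0.62, 0.87 and 0.76 FPKM in A and 0.8, 0.69 and 0.65 FPKM in B, with overlapping groups. TJP1, a tight junction scaffold, overlapped as well, at 6.71, 14.2 and 8.63 FPKM in A and 11.7, 12.8 and 11.1 FPKM in B.

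Of 16 tested contractile genes, 5 were higher in B, 0 were higher in A and 11 did not reach the fold with libraries apart, with a median of 0.60, and the summed level was 3254, 3507 and 3243 CPM in A and 6986, 6713 and 6772 CPM in B. ACTA2, smooth muscle actin, stood at 62.6, 106 and 72.7 FPKM in A and 364, 345 and 363 FPKM in B (2.04). TAGLN, an actin-binding protein of smooth muscle, stood at 57.5, 42.5 and 50.8 FPKM in A and 170.1, 131 and 157 FPKM in B (1.49), and MYLK, the myosin light chain kinase, at 5.02, 4.84 and 4.72 FPKM in A and 30.5, 31.8 and 30.9 FPKM in B (2.57). The actin regulator CALD1 stood at 18.3, 18.8 and 21.6 FPKM in A and 100.2, 196 and 124 FPKM in B (2.73).

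Transcription factors of neural crest and periocular mesenchyme differed in both directions. Of 31 tested neural crest genes, 9 were higher in B and 5 in A, and of 22 tested periocular factors, 6 were higher in B and 1 in A. The shares over all tested genes were 8.26% and 5.3%. TWIST2 (395405), a mesenchymal factor, stood at 339, 336 and 336 FPKM in A and 13.6, 8.62 and 11.9 FPKM in B (-4.97). The 3 values of each group were close to each other, and group B lay near the E3 level of 11.8, 10.5 and 10 FPKM. TBX18, a T-box factor of periocular mesenchyme, stood at 5.71, 5.18 and 5.51 FPKM in A and 0.26, 0.2 and 0.28 FPKM in B (-4.54), whereas E3 held 5.82, 5.06 and 5.72 FPKM, near group A. The endothelin receptor EDNRB stood at 22.6, 13.3 and 24.6 FPKM in A and 0.2, 0.21 and 0.31 FPKM in B (-6.50).

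In the other direction, MEOX1 stood at 0.45, 0.77 and 0.68 FPKM in A and 19.4, 10.7 and 14.9 FPKM in B (4.47) and PRRX2 at 14.1, 16.6 and 14.6 FPKM in A and 52.1, 29.8 and 46.5 FPKM in B (1.40), both homeobox factors of mesenchyme. TFAP2A, an AP-2 factor of neural crest and ectoderm, stood at 6.78, 5.07 and 7.82 FPKM in A and 17.8, 28.2 and 22.9 FPKM in B (1.79). Its relative TFAP2B stood at 249, 281 and 241 FPKM in A and 226, 214 and 223 FPKM in B (-0.37), and LMX1B, a factor needed for anterior eye development, at 86.3, 114 and 97.4 FPKM in A and 198, 154 and 189 FPKM in B (0.76). The libraries of both were apart without reaching the fold. SOX10, which marks migrating crest cells and glia, was near 0 in A and at 0.53, 1 and 0.45 FPKM in B, against 17.2, 14.5 and 16.7 FPKM at E3.

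Among signalling lists, those of retinoic acid, of WNT and of TGF-beta and BMP held more members higher in B than in A. The shares over all tested genes were 8.26% higher in B and 5.3% higher in A. Of 14 tested retinoic acid genes, 4 were higher in B and 1 in A. The synthesis enzyme ALDH1A2 stood at 209.8, 276 and 238 FPKM in A and 493, 553 and 488 FPKM in B (0.98), apart but just under the fold, and the degrading enzyme CYP26B1 at 3.57, 7.2 and 3.95 FPKM in A and 36.2, 28.2 and 35.6 FPKM in B (2.65). CRABP1, a binding protein for retinoic acid, was the 1 gene higher in A, at 37.3, 37 and 29.8 FPKM in A and 10.2, 4.76 and 9.1 FPKM in B (-2.17), far under its E3 level of 543, 571 and 664 FPKM. Of 31 tested WNT genes, 8 were higher in B and 2 in A. The ligands WNT9B and WNT2B stood at 0.27, 0.13 and 0.39 FPKM in A and 11, 31.1 and 13.8 FPKM in B (6.13) and at 0.7, 0.6 and 0.86 FPKM in A and 20, 28.4 and 16.9 FPKM in B (4.84). WNT11, a ligand of the non-canonical branch, stood at 6.52, 8.95 and 6.61 FPKM in A and 2.91, 2.72 and 2.25 FPKM in B (-1.78).

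Of 26 tested genes of TGF-beta and BMP signalling, 5 were higher in B and 1 in A, the latter 2 without E5 library 2 or without E5 library 3. The ligand BMP4 stood at 0.51, 0.31 and 0.46 FPKM in A and 13.3, 9.36 and 11.7 FPKM in B (4.64) and the pseudoreceptor BAMBI, an inhibitor of this pathway, at 5.01, 5.59 and 4.29 FPKM in A and 21.9, 20.8 and 23.9 FPKM in B (2.04). Of 22 tested FGF genes, 5 were higher in B and 4 in A. The ligand FGF9 stood at 33.6, 32.5 and 35.4 FPKM in A and 6.07, 10.2 and 4.11 FPKM in B (-2.44), and the feedback inhibitors SPRY2 and SPRY4 at 38.8, 35.8 and 27.5 FPKM in A and 5.74, 6.37 and 11.1 FPKM in B (-2.24) and 18.7, 18.4 and 20.1 FPKM in A and 6.52, 7.87 and 5.35 FPKM in B (-1.83). Receptor FGFR2 was higher in B, at 10.1, 10.3 and 9.29 FPKM in A and 24.7, 21 and 26.7 FPKM in B (1.17).

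Of 40 tested guidance genes, 10 were higher in B and 5 in A, with a median of 0.02. The semaphorin receptors PLXNA2 and PLXNC1 differed in opposite directions, at 5.84, 6.06 and 6.03 FPKM in A and 0.42, 0.29 and 0.49 FPKM in B (-3.98) and 0.95, 1.03 and 1.12 FPKM in A and 8.16, 7.03 and 7.11 FPKM in B (2.76). SEMA3E, a secreted semaphorin, stood at 10.7, 7.28 and 12.3 FPKM in A and 2.23, 2.47 and 2.13 FPKM in B (-2.25). Among cell surface partners, the receptor EPHA7 stood at 22.1, 24.1 and 19.6 FPKM in A and 3.32, 3.24 and 3.89 FPKM in B (-2.76) and the ligand EFNB2 at 3.86, 5.52 and 3.76 FPKM in A and 36.1, 30.6 and 33.6 FPKM in B (2.82). Of 29 tested genes of the cell cycle and DNA replication, 0 reached the fold with libraries apart in either direction, and the median was -0.06. Without E5 library 2, 1 was higher in B and 1 in A, and without E7 library 1, 2 were higher in A. Of 24 tested genes of glycolysis and hypoxia, 3 were higher in A and 1 in B, and the 3 became 6 without E7 library 3 and 5 without E5 library 3. LDHA, lactate dehydrogenase, stood at 429, 361 and 405 FPKM in A and 134, 189 and 167 FPKM in B (-1.39).

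**Figure D3:**
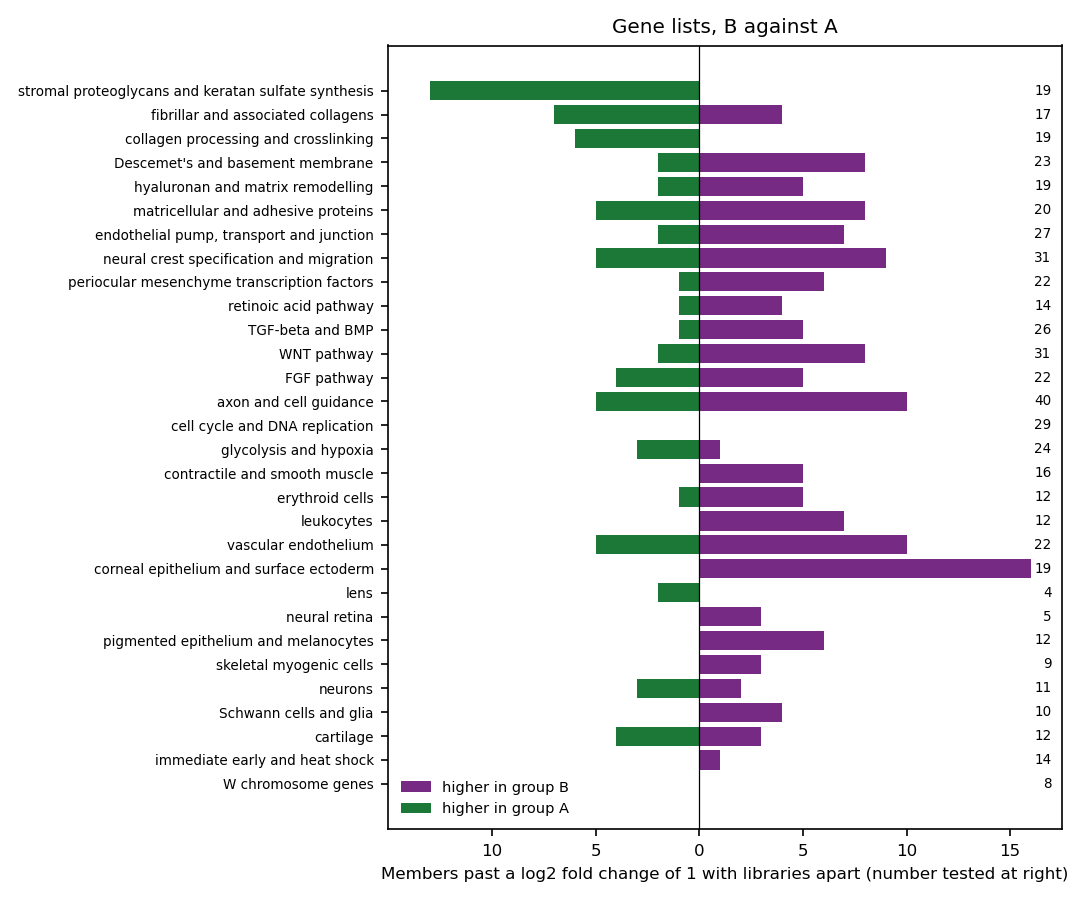
For each of 30 gene lists, the number of members at a log2 fold change of 1 or more with libraries apart, to the right when higher in group B and to the left when higher in group A, with the number tested at the right edge. The proteoglycan list has 13 members toward A and 0 toward B, and the corneal epithelium list 16 toward B and 0 toward A.

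Marker lists of other tissues differed in whether, and in which direction, they moved with the groups. Of 30 listed genes of corneal epithelium and surface ectoderm, 22 had an entry and 19 were tested, and 16 of these were higher in B and 0 in A (16 and 0 to 1 when any 1 corneal library was left out). A member can pass the filter on low counts through group B alone, so the count is no support. Their summed level was 78.0, 55.8 and 98.0 CPM in A and 447, 1003 and 536 CPM in B, with E7 library 1 the highest. EPCAM, an epithelial adhesion molecule, stood at 1.61, 1.98 and 3.34 FPKM in A and 31.7, 72.5 and 37.9 FPKM in B (4.31), and DSP, which encodes the desmosomal protein desmoplakin, at 0.78, 0.41 and 1.34 FPKM in A and 7.86, 22.1 and 12 FPKM in B (4.03). PAX6, a factor of surface ectoderm and lens, was at 0.26, 0.18 and 0 FPKM in A and 6, 5.55 and 3.43 FPKM in B. The keratin KRT5 was at most 0.07 FPKM in any corneal library. The part of epithelial RNA in the differences above was not tested.

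The summed level of neural retina markers was 28.9, 33.8 and 28.5 CPM in A and 290.0, 277 and 263 CPM in B, and that of Schwann cell and glial markers 67.4, 68.0 and 66.2 CPM in A and 326, 314 and 298 CPM in B. Both lists hold FABP7, a fatty acid binding protein of glia and neural progenitors, which stood at 41.6, 48.4 and 41.3 FPKM in A and 419.6, 399 and 380.4 FPKM in B (3.08) and made up most of both sums in B. Its level was 28.5, 33.2 and 28.3 CPM in A and 288, 273 and 261 CPM in B. FABP7 thus made up nearly all of the group difference in both sums. Leukocyte markers summed to 36.6, 27.2 and 40.5 CPM in A and 86.7, 126 and 87.8 CPM in B. Of 22 tested vascular endothelial markers, 10 were higher in B and 5 in A, and their sums overlapped, at 929, 1040 and 928 CPM in A and 1293, 996 and 1190 CPM in B. EGFL7, SOX17 and ECSCR, all endothelial genes, had no value listed in any A library, so 0 was used there. They had 99, 79 and 105 counts over the 3 B libraries. Against a floor of 3 counts over group A these were at least 44.7-fold, 35.7-fold and 47.4-fold higher in CPM. Their levels in B were low, with means of 1.55, 1.2 and 0.777 FPKM, against 16.9, 5.7 and 11.9 FPKM at E3. KDR, the VEGF receptor, stood at 0.04, 0.08 and 0.1 FPKM in A and 1.33, 0.49 and 0.88 FPKM in B. In the other direction, ENG, which encodes endoglin, stood at 53.8, 56.7 and 51.3 FPKM in A and 25.9, 16.2 and 20.1 FPKM in B (-1.47), and the factor ETS2 at 54, 59.1 and 50.7 FPKM in A and 14.7, 10.2 and 16 FPKM in B (-2.10).

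The other lists differed in direction. Of 11 tested neuronal markers, 2 were higher in B and 3 in A, the 2 being 1 without E5 library 2 or without E7 library 1, and their summed level was 357, 307 and 344 CPM in A and 273, 270.0 and 255 CPM in B. GAP43, a growth cone protein, stood at 6.9, 5.24 and 6.9 FPKM in A and 0.86, 2.24 and 1.32 FPKM in B (-2.24). Of 12 tested cartilage markers, 3 were higher in B and 4 in A, with a median of -0.31. Their sum was 1613, 994 and 1706 CPM in A and 4244, 9309 and 4576 CPM in B. COL2A1 alone held 1490, 867 and 1590 CPM in A and 4190, 9220 and 4500 CPM in B. The sum thus followed COL2A1, not the list as a whole. EPYC, a proteoglycan of cartilage, was higher in A, at 17.4, 39.2 and 20.5 FPKM in A and 5.98, 6.12 and 11.1 FPKM in B (-1.84). Of 4 tested lens markers, 0 were higher in B and 2 in A, the latter 1 without E7 library 3, and their sums overlapped. Of 12 tested markers of pigmented cells, 6 were higher in B and 0 in A, and of 9 tested myogenic markers, 3 and 0. Over all tested genes the shares were 8.26% and 5.3%. Here too a member can pass the filter on low counts through group B alone, so these counts are no support. PMEL, a protein of pigment granules, stood at 0.54, 0.71 and 0.5 FPKM in A and 6.84, 5.19 and 5.4 FPKM in B (3.20).

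Among 12 tested red cell markers, 5 were higher in B and 1 in A. They summed to 215, 180 and 227 CPM in A and 242, 367 and 234 CPM in B. The 1 toward A was GYPC, at 32.5, 44.2 and 31.7 FPKM in A and 10.1, 11.8 and 14.8 FPKM in B (-1.67). Globin transcripts of red cells were far under E3 in every corneal library. HBZ, an embryonic globin, stood at 0.76, 1.75 and 0.44 FPKM in A and 33.1, 148 and 19.9 FPKM in B, against 2791, 3037 and 2722 FPKM at E3, and E7 library 1 again held the most. Globin genes have near-identical copies that may share reads. The lens crystallin CRYAA and the muscle factor MYOD1 were at most 0.57 and 0.32 FPKM in any corneal library.

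**Figure D4:**
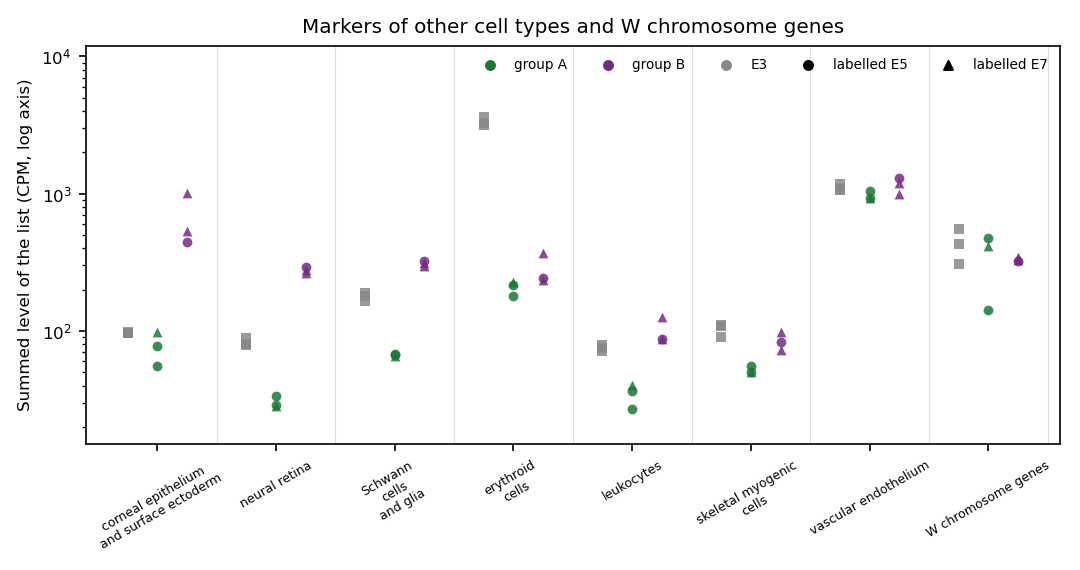
Summed CPM of 7 marker lists of other cell types and of W chromosome genes in each library, on a log axis, with colours and shapes as for the single genes. Corneal epithelium markers reach 1003 CPM in group B against at most 98.0 CPM in group A, and the W chromosome list is lowest in 1 library of group A.

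The place of E3 was read for the genes of each direction and for all 11748 tested genes. Over all tested genes, E3 lay below all A libraries in 33.2%, above all A libraries in 32.0%, below all B libraries in 29.5% and above all B libraries in 29.7%. Of the 623 genes higher in A, E3 lay below all A libraries in 509 (81.7%) and above all B libraries in 181 (29.1%). Of the 970 genes higher in B, E3 lay above all A libraries in 516 (53.2%) and below all B libraries in 552 (56.9%). E3 lay above all 6 corneal libraries in 220 of the 970 genes (22.7%), in 30 of the 623 (4.82%) and in 2646 of all tested genes (22.5%). The second principal component, by which the groups were chosen, was computed on all 9 libraries, so E3 took part in that choice. The groups also fix which corneal libraries are compared. Genes higher in A were picked by their levels in A and B, which alone can raise the share with E3 below A or above B. The same holds for genes higher in B, with A and B exchanged. These shares are descriptions, and their difference was not tested.

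By the deposited labels, E7 against E5, the quasi-likelihood F-test of edgeR, adjusted by Benjamini and Hochberg, called 0 of 11748 genes (0%), with 279 genes at an unadjusted p under 0.05. The smallest adjusted p was 0.25, of LRRC8D, a volume-regulated anion channel subunit (log2 fold change -5.09). limma on log2(FPKM + 1) also called 0, with 314 unadjusted, and DESeq2 called 10. In 581 genes (4.95%) the libraries of the labels did not overlap, and in 89 of these the log2 fold change was at least 1. By group, 5409 genes (46%) had libraries apart, and none of these could be apart by label. The 4.95% is thus no measure of how rare label differences are. For KERA, COL6A2, TWIST2, CDH2 and EPCAM the adjusted p by edgeR was 0.972 to 0.975. KERA, COL6A2, TWIST2, CDH2 and EPCAM were apart by group, which widens their spread inside each label. None of the 27 tested landmark genes had libraries apart by label. For the 11 higher in B and the 10 higher in A this was fixed in advance. The same holds for landmarks apart by group without reaching the fold, such as ALDH1A2, COL8A2 and LMX1B. Libraries apart by group cannot be apart by label, since each group holds both labels. The summed levels of the 30 lists were compared by label with an exact 2-sided permutation test of 3 against 3, which cannot go below p = 0.1, and every p adjusted over the lists was 1. Each stage label holds libraries of both profile groups, whose difference is part of the spread inside a label in this test. Without E7 library 3 the unadjusted count was 1800 and without E5 library 3 it was 1315, with 1 gene and 0 genes called. Either loss leaves all libraries of 1 label in 1 group, so these counts take in the difference between the groups. Without any other single corneal library the unadjusted count was 165 to 307.

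Inside both groups in the same direction, 64 genes (0.545%) were higher in the libraries labelled E7 and 36 (0.306%) higher in those labelled E5. Each did so by a difference of mean log2 CPM of at least 1 in A and in B, with the libraries apart. A single library near 0 can carry such a difference of means. With 1 library of a label against 2 in each group, there is no test. GSTA4, a glutathione transferase, stood at 0, 2.05 and 3.8 FPKM in A and 44.1, 142 and 94.3 FPKM in B. Inside each group the E7-labelled libraries were thus above the E5-labelled ones, but E7 library 3 lay far under E5 library 3. In A the 0 of E5 library 1 carried much of the difference, since E5 library 2 held 2.05 FPKM against 3.8 FPKM in E7 library 3. CALML3, a calmodulin-like protein of epithelia, stood at 0.92, 0.52 and 2.51 FPKM in A and 14, 47.4 and 27.1 FPKM in B, and the protease-like gene PRSS35 at 0.34, 0.56 and 1.61 FPKM in A and 8.67, 27.9 and 19.9 FPKM in B. In the other direction, the bicarbonate transporter SLC4A7 stood at 0.43, 3.46 and 0.05 FPKM in A and 11.1, 2.2 and 0.59 FPKM in B. WDR60, a component of the ciliary dynein motor, stood at 5.33, 5.84 and 0.15 FPKM in A and 4.77, 4.16 and 0 FPKM in B. Here E7 library 1 was close to E5 library 3, and the 0 of E7 library 2 carried the difference in B. Libraries labelled E7 were also the shallower ones, and the part of depth in these differences was not tested.

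Single libraries stood apart from their own group in few genes. Of 5566 genes with a mean of 10 FPKM or more, E7 library 1 was at least 2-fold above both other B libraries in 14 and below them in 3. E5 library 2 was above both other A libraries in 1 gene and below in 12, of which 4 lie on the W chromosome, carried by female birds alone. HNRNPKL, a W-linked gene, stood at 71.7, 18.9 and 65.8 FPKM in A and 49.5, 50 and 56 FPKM in B. Summed over 28 W genes, the level was 768, 334 and 712 CPM in A, 542, 520 and 561 CPM in B and 682, 511 and 825 CPM at E3. Counts were thus assigned to W genes in every library, with the lowest level in E5 library 2. Whether other genes share these reads was not tested. The other 4 corneal libraries had at most 2 genes above and 3 below.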

How the data were processed

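RNA profiles of 9 chick libraries were used, 3 per deposited stage label. Per the file headers, the authors deposited per entry an FPKM value and an expected count, which can be fractional. Bowtie2, HISAT and galGal5 are named, per the submitters' processing notes. For the counting program, the annotation and strandedness, nothing is given in the sources used here. Where a library lists no value for an entry, 0 was used. Entries were named from a RefSeq table of GRCg7b, another build, so no coordinates are given. Of 46855 entries, 22897 had no name and stayed out of the gene tests but not of the library totals. Named entries were summed to 14120 genes, with 76.5 to 78.6% of the counts of a library.

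Sums were rounded and fitted with edgeR 4.0.16 (R 4.3.3) on all 9 libraries, with TMM factors and filterByExpr, which left 11748 genes. The fit for B minus A had E3, A and B as levels, and the fit by label E3, E5 and E7, with an adjusted p threshold of 0.05. Alternatives included DESeq2 1.42.0 and limma 3.58.1. Members, lists and groups were chosen with earlier results of these data known.

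Named genes were, by rule, the 12 largest differences per direction with 10 FPKM or more, up to 3 members per list and direction with 5 FPKM or more, 30 landmark genes, the 5 largest label differences per direction inside both groups, and up to 3 genes per library far from its group. COL1A2, COL5A1, COL5A2, HAPLN1, EGFL7, SOX17, ECSCR and LRRC8D, and the genes of the closing section, were chosen after their values were seen. The floor of 3 counts covers counting error only.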

Additional observations from a re-analysis of the deposited data

Results flagged for a closer look

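The entries without a gene name, which took no part in the comparisons, also held a signal of the groups. Over these entries with a mean log2(CPM + 1) of at least 1, correlations were 0.828 to 0.854 inside group A and 0.804 to 0.826 inside group B. Between the groups they were 0.742 to 0.81, the highest being 0.81 between E5 library 2 and E5 library 3. For named genes the lowest value inside a group was 0.975 and the highest between groups 0.948, so the separation without overlap held there, whereas over unnamed entries 0.81 lay above the lowest value inside group B, 0.804.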

How the results depend on the processing

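B minus A kept its counts within 1.5 times under RLE factors, library size alone, no filter, DESeq2 and the loss of any 1 library (994 to 1060 higher in B and 653 to 714 higher in A), but not on log2(FPKM + 1), with 508 and 313, or at a log2 fold change of 2, with 508 and 212. Inside both groups, log2(FPKM + 1) left 8 genes higher in E7 and 10 higher in E5. By label, DESeq2 called 10 genes, and leaving out 1 library gave 0 to 1: 1 without E7 library 2 (TRIM23), 1 without E7 library 3 (LRRC8D) and 0 otherwise. Of 1540 fold changes of 140 named genes under the alternatives, 78 moved by more than the spread between libraries. In 21 of the 1540, from 11 genes, the sign changed, and 0 of these genes were counted as higher in A or B. The cause was not tested. With a replicate block, 0 genes were called by label, with 191 at an unadjusted p under 0.05. Pairing by number was not shown: deviations of E3 libraries and same-numbered corneal libraries correlated at -0.004 to 0.085. Same-numbered E5 and E7 libraries correlated at -0.479, -0.349 and -0.771, but each such pair joins group A with group B, so these values do not bear on pairing. Leaving out 1 corneal library, an alternative chosen after seeing the data, moved 18 of 360 counts over the lists. The totals of the E7 libraries, 9874339 to 13740392 counts, limit the precision of low genes.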

Other observations

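Some well expressed genes outside the lists also differed between the groups, and were chosen after their values were seen. GHRHR, which binds growth hormone releasing hormone, stood at 66.9, 65.6 and 71.2 FPKM in A and 3.4, 2.3 and 3.22 FPKM in B. It had no value listed in any E3 library. EGFL6, a secreted matrix protein, stood at 179, 125 and 166 FPKM in A and 11.7, 10.1 and 12.5 FPKM in B, and the tendon protein TNMD, tenomodulin, at 53.1, 28.9 and 49.2 FPKM in A and 3.41, 3.2 and 2.86 FPKM in B. The homeobox factors IRX3 and IRX5 stood at 42.1, 33.4 and 43.1 FPKM in A and 1.23, 1.05 and 1.61 FPKM in B and at 13.6, 11.8 and 12.1 FPKM in A and 0.54, 0.31 and 0.22 FPKM in B. In the other direction, ANGPTL7, a secreted protein abundant in adult human cornea, stood at 1.01, 2.28 and 1.27 FPKM in A and 18.5, 47 and 26.4 FPKM in B, and MYOC, which encodes myocilin, at 1.8, 0.9 and 0.73 FPKM in A and 9.74, 34.8 and 19.6 FPKM in B. The lymphatic growth factor VEGFD stood at 0.27, 0.99 and 0.55 FPKM in A and 13.4, 11.2 and 13.8 FPKM in B, against 153, 157 and 148 FPKM at E3. The groups did not overlap in these genes, but the genes were chosen for their difference. Each group holds both labels, whatever the gene.

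The secreted chemokine CXCL14 had the largest difference toward A among genes with 10 FPKM or more, at 112, 53.2 and 107 FPKM in A and 0.18, 0.2 and 0.39 FPKM in B. E5 library 2 held the least of group A, while B lay below the E3 values of 1.04, 1.49 and 1.74 FPKM. SH3BGR had the largest difference toward B by the same rule, at 0.32, 0.04 and 0.51 FPKM in A and 13, 44.6 and 21.6 FPKM in B.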
